A study of Mus musculus with 6 samples.

Results

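The replication-dependent histone genes are the clustered genes that supply the nucleosome core histones H2A, H2B, H3 and H4 and the linker histone H1 while a cell copies its DNA. They were chosen by name and gene type alone: protein-coding genes of GENCODE M21 (mouse build GRCm38) whose symbols begin with Hist1h, Hist2h, Hist3h or Hist4h. This gave 67 genes among the 55401 gene identifiers of each count table: 6 H1, 18 H2A, 18 H2B, 12 H3 and 13 H4 genes. Of these, 54 lie in the Hist1 cluster on chromosome 13 (21715763 to 23934851), 10 in Hist2 on chromosome 3 (96219865 to 96270132), 2 in Hist3 on chromosome 11 (58948920 to 58956830) and 1, *Hist4h4*, stands alone on chromosome 6 (136801553 to 136804415). Another 3 genes with such symbols are pseudogenes and were left out.

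RNA came from whole tibias of 8-week-old male mice, 3 Atrx-cKO mice (Osterix-Cre; Atrx f/y) and 3 control mice that carried the floxed allele without Cre (Atrx f/y). ATRX is a chromatin remodeler that, with DAXX, deposits the histone variant H3.3. *Osterix-Cre* acts in osteoblast progenitors, and its Tet-off promoter was held silent by doxycycline until 3 weeks of age, so recombination was postnatal. The paper reports Cre-positive cells in ossification centers and also in the prehypertrophic and hypertrophic growth plate. A tibia with its marrow holds many other cell types, and which cells of these tibias recombined was not measured here. All 3 Atrx-cKO mice and 0 controls carried the transgene, so the effects of Cre and of *Atrx* loss cannot be told apart. In bulk RNA, fewer cells of a type and less RNA per cell cannot be told apart either. Whether histone transcripts differed between the genotypes was asked gene by gene and class by class.

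Replication-dependent histone genes usually have 1 exon, and their mRNA ends not in a poly(A) tail but in a conserved stem-loop a short way past the stop codon. Stem-loop binding protein (SLBP) holds this structure, U7 small nuclear ribonucleoprotein directs the cut behind it, and the mRNA is destroyed when DNA synthesis stops. A minority of these genes can also use a polyadenylation signal further downstream, as happens in cells that have left the cell cycle. The libraries were made by poly(A) selection, so the counts below describe the polyadenylated share of histone RNA and whatever tailless RNA was carried along, not the whole histone mRNA pool.

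The stem-loop is the sequence that defines the class, and its forms are shown with the 4-base loop in capitals. The annotated transcript was searched on the sense strand, within 200 bases after the stop codon, for GG, any 2 bases, CTT, any base, T, any base, AG, any 2 bases and CC. The motif was present in 46 of the 51 histone genes with at least 40 annotated bases after the stop codon (90.2%) and in 8 of 20729 other protein-coding genes (0.0386%). The first form below belonged to 26 genes of the H1, H2A, H2B and H3 classes, the second to 7 H4 genes and the third to 6 H1, H2B and H3 genes. The fourth was found in *Hist1h4i* and *Hist2h4*, the 2 H4 genes with the most reads, and the fifth in *Hist1h4b* and *Hist1h4j*.
Form in 26 genes: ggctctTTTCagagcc
Form in 7 H4 genes: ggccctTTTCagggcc
Form in 6 genes: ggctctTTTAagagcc
Form in Hist1h4i and Hist2h4: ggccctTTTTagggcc
Form in Hist1h4b and Hist1h4j: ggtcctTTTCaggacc

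The H4 genes held the forms that begin with GGCC or GGTC. Annotated transcripts of 24 genes run on for more than 200 bases past the stop codon, and 17 of all 67 hold AATAAA or ATTAAA, the usual polyadenylation signals, in their last 50 bases. The last 30 bases are shown for 3 of the most abundant genes and for *Hist3h2ba*, the histone gene with the smallest p in the comparison of genotypes, with the signal in capitals.
Hist1h1c: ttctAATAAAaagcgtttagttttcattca
Hist2h2be: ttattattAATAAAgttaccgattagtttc
Hist1h4i: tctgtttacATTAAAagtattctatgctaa
Hist3h2ba: attAATAAAtttggttcaattttggccaca
*Hist1h1c*, *Hist1h4i* and *Hist3h2ba* thus hold both ends in their annotated transcripts, the stem-loop starting 24, 30 and 28 bases after the stop codon and a polyadenylation signal at the far end. In the annotated transcript of *Hist2h2be* only the polyadenylation signal was found. The transcript of *Hist1h2bc*, the second most abundant histone gene, has 2 exons over chromosome 13 from 23684199 to 23692908 and showed neither motif in the windows searched.

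The 6 libraries held 50977777 to 70571655 counts on genes. Levels are given as CPM, counts scaled to library size with TMM factors. The most that a count of 0 allows, 3 counts, corresponds to 0.0450 to 0.0630 CPM, a limit that covers counting error only. Replicates of 1 genotype were further apart than sampling noise. *Atrx* had 152.6, 166.1 and 171.0 CPM in Atrx-cKO replicates 1, 2 and 3 and 174.4, 166.4 and 165.3 CPM in the controls (log2 fold change -0.05, standard error 0.08). It is summed over floxed and other exons and over every cell type of the bone, and so checks no label. The listed marker genes of osteoblasts, osteoclasts, skeletal muscle, erythroid cells, neutrophils and B cells were detected in all 6 libraries. The summed level of the 8 muscle markers reached 10374 CPM in control replicate 3, against 619 to 2149 CPM in Atrx-cKO and down to 716 CPM in the controls, and that of the 8 osteoblast markers was 114741 to 118258 CPM in Atrx-cKO and 108754 to 185096 CPM in controls.

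Histone transcripts were scarce in these libraries and unevenly spread. The 67 genes together gave 124 to 161 CPM per library, which is 0.0125% to 0.0169% of the counts on genes. *Hist1h1c*, which encodes a linker histone of the H1 family, supplied 51.7% of this sum, and *Hist1h2bc* (an H2B gene) 15.4%. With *Hist2h2be* (5.79%, H2B), *Hist1h4i* (5.21%, H4) and *Hist3h2a* (2.05%, H2A), 5 genes made up 80.2% of the histone total. By class, H1 genes held 54.0%, H2B 25.5%, H4 10.3%, H2A 6.93% and H3 3.26%. The core histones are used in equal amounts in the nucleosome, so these shares of polyadenylated counts, which also grow with transcript length, are not the proportions of histone protein.

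Per kilobase of exon, the scale on which genes can be compared with each other, the median over the 67 genes was 0.517 CPM per kb. *Hist1h1c* was at 47.5, *Hist1h2bc* at 19.1 and *Hist1h4i* at 10.3 CPM per kb, and no other member exceeded the 3.39 CPM per kb of *Hist2h2aa2*. All 3 leading genes have annotated transcripts of more than 200 bases past the stop codon. Over the 24 genes with such transcripts the median was 0.994 CPM, or 0.454 CPM per kb, and 20 were tested. Over the other 43 it was 0.246 CPM, or 0.532 CPM per kb, and 28 were tested. The per-kb scale divides by the length that sets the groups apart. The highest of the 43 per kb was *Hist2h2aa2*. In the plot of levels by class, the long transcripts occupy both the top and the bottom of the range.

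**Figure D1:**
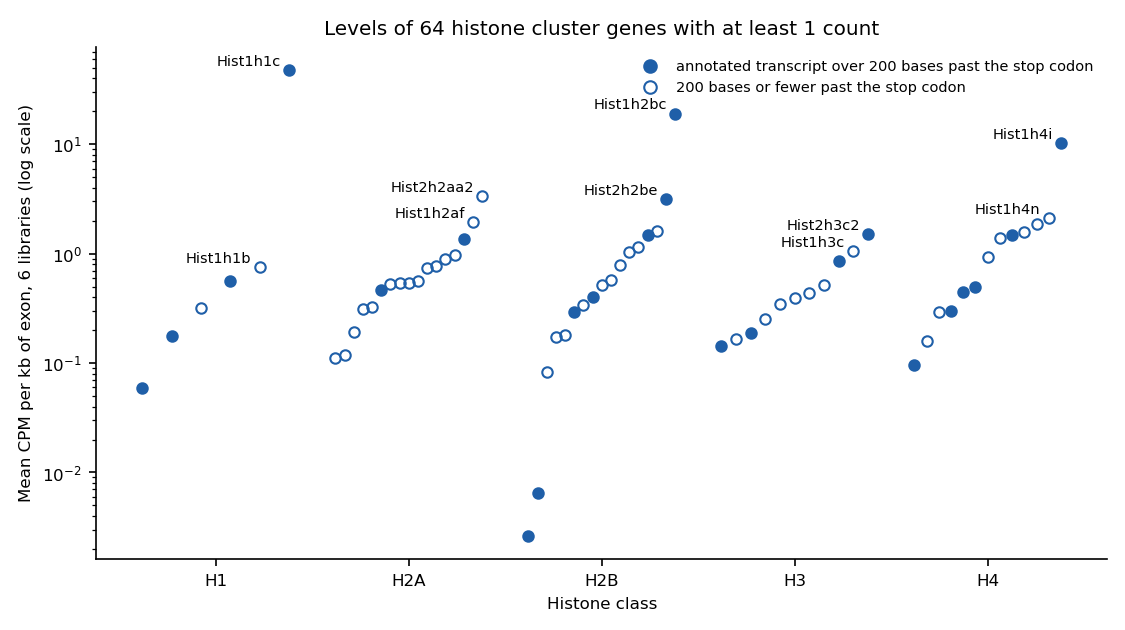
Mean level of each histone gene in CPM per kb of exon over the 6 libraries (log axis), by class, for the 64 genes with at least 1 count; 3 genes at 0 are not drawn. Filled points have annotated transcripts of more than 200 bases past the stop codon. *Hist1h1c* (47.5), *Hist1h2bc* (19.1) and *Hist1h4i* (10.3) stand above all others.

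At the other end, 3 genes had 0 counts in all 6 libraries: *Hist1h2aa*, *Hist1h2ba* and *Hist2h3c1*, named after their values were seen. *Hist1h2aa* and *Hist1h2ba* are the H2A and H2B genes known from the male germ line. All exonic bases of *Hist2h3c1*, an H3 gene, are also annotated as part of *Gm20634* on the same strand, and how reads shared by 2 genes were counted is not given in the sources used here. The filter on low counts kept 48 of the 67 genes for testing (5 H1, 12 H2A, 12 H2B, 8 H3 and 11 H4) and removed 19. The median level of the 42 tested genes under 2 CPM was 0.429 CPM, which is few reads per library.

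Neighboring H2A and H2B genes are often transcribed away from each other from a shared promoter, and 12 such pairs were found, with 175 to 305 bases between the annotated starts. Per kilobase, the H2B gene was higher in 6 pairs, the H2A gene in 5, and both were at 0 in 1. The largest difference in CPM per kb was between *Hist1h2ac*, at 0.462 CPM per kb, and *Hist1h2bc*, at 19.1 CPM per kb, which lie 250 bases apart. As a ratio the gap was wider in 2 pairs whose H2B gene was close to 0, *Hist1h2ao* with *Hist1h2bq* (0.544 against 0.00653 CPM per kb) and *Hist1h2ap* with *Hist1h2br* (0.193 against 0.00264 CPM per kb). Of the 150-base stretches (the length of 1 read) of *Hist1h2bq* and *Hist1h2br*, 92.4% and 84.2% also occur in transcripts of other genes. Each of these 2 genes shares stretches with the other, so their low counts may reflect reads that could not be assigned. The segment between *Hist1h2ac* and *Hist1h2bc* is shown with matches to 3 motifs in capitals, because these 2 genes share it and differ in level. It was taken from the RefSeq promoter table (GRCm38.p6, chr13:23683910-23684209, minus strand) and reads toward *Hist1h2ac*.
Hist1h2ac and Hist1h2bc: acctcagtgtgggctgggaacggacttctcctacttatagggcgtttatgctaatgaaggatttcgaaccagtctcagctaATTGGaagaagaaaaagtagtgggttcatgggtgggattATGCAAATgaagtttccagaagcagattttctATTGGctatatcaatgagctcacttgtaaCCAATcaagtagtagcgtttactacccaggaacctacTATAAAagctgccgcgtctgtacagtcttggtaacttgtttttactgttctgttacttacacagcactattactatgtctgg
The first motif was TATAAA, a form of the TATA box that places the start of transcription. The second was CCAAT, the box bound by the factor NF-Y. The third was the octamer ATTTGCAT, which OCT1 binds and which is known from H2B promoters. Each was searched on both strands in the 250 bases before and the 50 bases after the RefSeq start. RefSeq promoters were matched for 62 of the 67 genes.

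Of those 62 genes, 56.5% had TATAAA in a promoter, 85.5% CCAAT and 22.6% ATTTGCAT. The shares were 15.6%, 41% and 1.92% of the 26963 other genes with RefSeq promoters. The classes differed in which motifs they held. CCAAT was found in promoters of all matched H1, H2A, H2B and H3 genes and of 3 of 12 H4 genes. ATTTGCAT was found in promoters of 7 of 18 H2A and 7 of 16 H2B genes and of 0 of the H1, H3 and H4 genes. Windows of divergent pairs overlap, so an H2A and an H2B gene can count the same match, and a match describes the letters only.

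Against this background of levels, the genotypes were compared first by class. Summed over its genes, no class separated Atrx-cKO from control. Some sums rest largely on 1 gene. Of the histone total, *Hist1h1c* held 51.7% and all H1 genes 54.0%, so the H1 sum is mostly that gene. *Hist1h2bc* held 15.4% and all H2B genes 25.5%, and *Hist1h4i* 5.21% and all H4 genes 10.3%. H1 genes summed to 68.5, 71.3 and 89.4 CPM in Atrx-cKO replicates 1, 2 and 3 and to 84.9, 72.8 and 76.8 CPM in the controls (76.4 ± 11.3 against 78.2 ± 6.22, SD, n = 3). H2A genes summed to 8.02, 9.98 and 12.4 CPM in Atrx-cKO and 10.6, 9.33 and 9.26 CPM in the controls. H2B genes summed to 32.0, 35.8 and 38.9 CPM in Atrx-cKO and 44.0, 34.0 and 34.5 CPM in the controls. H3 genes summed to 3.69, 7.18 and 4.12 CPM in Atrx-cKO and 4.99, 4.14 and 3.86 CPM in the controls. H4 genes summed to 12.1, 17.0 and 14.5 CPM in Atrx-cKO and 16.2, 13.0 and 15.6 CPM in the controls. In every class the highest control was replicate 1 and the lowest Atrx-cKO library replicate 1. The log2 ratios of the class means, Atrx-cKO to control, ran from -0.07 (H2B) through -0.04 (H4), -0.03 (H1) and 0.06 (H2A) to 0.21 (H3), and over all 67 genes the ratio was -0.03 (141.6 ± 17.5 against 144.6 ± 14.3 CPM, SD, n = 3). The H3 ratio turned to -0.15 without Atrx-cKO replicate 2, and in the other classes too the sign changed when 1 library was left out. These sums carry no test, and the genotypes overlapped in every one of them.

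**Figure D2:**
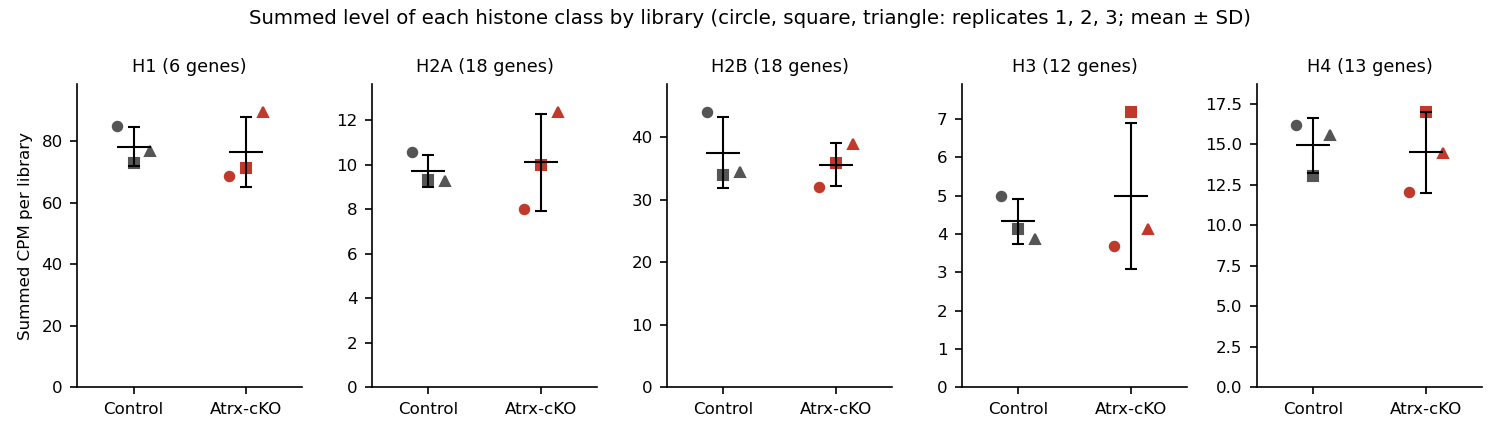
Summed CPM of all genes of each histone class in the 3 control and 3 Atrx-cKO libraries, with the mean and SD in black; each axis starts at 0. The genotypes overlap in all 5 classes.

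Gene by gene, 0 of the 48 tested histone genes were called at the study's thresholds of 0.05 for the adjusted p and 1 for the size of the log2 fold change (quasi-likelihood test in edgeR, Benjamini-Hochberg adjustment over all 20636 genes tested, of which 0.0145% were called). DESeq2's Wald test also called 0 of the 59 histone genes to which it gave an adjusted p, where 0.0961% of all such genes were called. At an unadjusted p under 0.05, 1 histone gene was higher in Atrx-cKO, where 1.59% of all genes tested were, and 2 were lower, where 2.05% were. Among the 59, DESeq2 gave such a p to 2 histone genes, *Hist3h2ba* and *Hist1h4m*, both higher, where 1.55% of all genes were higher and 2.45% lower. It also gave one to *Hist1h2ah*, an H2A gene it left without an adjusted p, which had 7, 0 and 10 counts in Atrx-cKO and 0 in each control and was noted after its values were seen. The 3 Atrx-cKO libraries lay entirely above the 3 controls for 2 tested histone genes, with 4.3% of all genes tested in that state, and entirely below for 4, with 4.01%. Among the 19 genes under the filter, *Hist1h2bp* (H2B) was also higher in every Atrx-cKO library, at 0.0513, 0.105 and 0.102 CPM against 0.0350, 0.0150 and 0.0420 CPM. These are only 3, 6 and 6 counts against 2, 1 and 2, near the limit of 3 counts. No share over all genes under the filter is set beside it, and it too was noted after its values were seen. Over the tested histone genes, log2 fold changes above 0 were found in 25 and below 0 in 23. Their median was 0.05, against 0.00 over all genes tested, and they ran from -0.74 (*Hist2h2bb*, H2B) to 1.62 (*Hist1h4m*, H4).

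**Figure D3:**
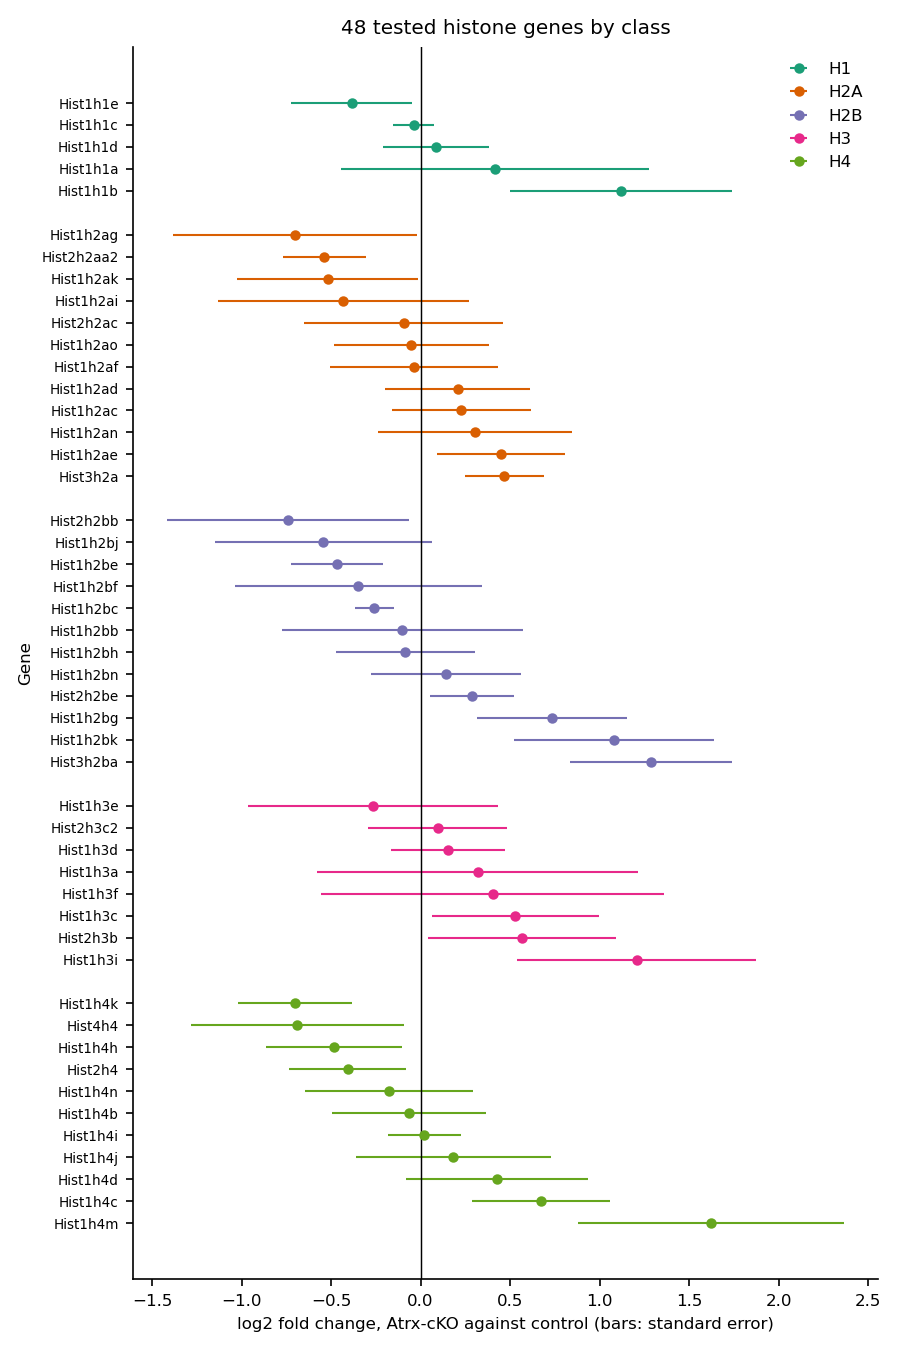
Log2 fold change of Atrx-cKO against control for the 48 tested histone genes by class; bars are standard errors from edgeR. Values lie on both sides of 0 in each class, and the widest bars belong to genes with few reads.

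The precision of these fold changes followed the level of the gene. The median standard error was 0.46 on the log2 scale over the tested histone genes and 0.17 over all genes tested. Within a genotype, the 42 tested histone genes under 2 CPM had a median coefficient of variation of 40.5%, and all 5935 tested genes under 2 CPM one of 34.0%. The 6 histone genes at 2 CPM or more had a median of 17.98%. A 2-fold difference is 1 on the log2 scale, or little more than 2 standard errors of the median histone gene. For the abundant genes the interval of the difference was narrower.

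Among linker histones, *Hist1h1c* had 66.5, 67.9 and 84.8 CPM in Atrx-cKO and 81.8, 69.6 and 73.6 CPM in control. The 2 groups cover the same range, and the log2 fold change was -0.04 (standard error 0.11, 95% interval -0.30 to 0.23). The next by CPM was *Hist1h1d*, with 0.940, 1.30 and 1.78 CPM in Atrx-cKO and 1.49, 1.200 and 1.09 CPM in control, a fold change of 0.09 (standard error 0.30). *Hist1h1e* was at -0.38 (standard error 0.34). *Hist1h1b*, at 0.256, 0.770 and 1.27 CPM against 0.455, 0.420 and 0.168 CPM, had the highest fold change of the class, 1.12 (standard error 0.62, adjusted p = 0.992 in edgeR), with Atrx-cKO replicate 1 inside the control range. Without Atrx-cKO replicate 3 it was 0.54. Its annotated transcript ends at the stop codon.

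Among H2B genes, *Hist3h2ba* had 1.52, 0.753 and 1.60 CPM in Atrx-cKO replicates 1, 2 and 3 and 0.613, 0.270 and 0.714 CPM in control. Every Atrx-cKO library was above every control, although replicate 2 exceeded the highest control by little. The log2 fold change was 1.29 (standard error 0.45, 95% interval 0.23 to 2.34). Its unadjusted p was under 0.05 in edgeR and in DESeq2. Adjusted over all genes it did not pass, with an adjusted p = 0.992 in edgeR and an adjusted p = 0.649 in DESeq2. The gene lies on chromosome 11 from 58948920 to 58949533 on the plus strand, overlaps no annotated gene and shares no 150-base stretch with another gene's transcripts.

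Its neighbor in the Hist3 cluster, the H2A gene *Hist3h2a* (chromosome 11 from 58954685 to 58956830), had 2.62, 3.34 and 4.24 CPM in Atrx-cKO and 2.68, 2.24 and 2.46 CPM in control. Atrx-cKO replicates 2 and 3 were above all controls and replicate 1 was inside their range (log2 fold change 0.47, standard error 0.22, adjusted p = 0.992 in edgeR). It was 0.28 without Atrx-cKO replicate 3. Hist3 was the only cluster whose summed level did not overlap between genotypes, at 4.14, 4.10 and 5.84 CPM in Atrx-cKO and 3.29, 2.51 and 3.17 CPM in control, a log2 ratio of 0.65 over 2 genes. This sum includes *Hist3h2ba*, the histone gene with the smallest p, so it is no separate result. Among all genes tested, 4.3% singly lay higher in Atrx-cKO without overlap. The sum carries no test. Of the exonic bases of *Hist3h2a*, 33.0% also belong to *Trim17* on the same strand. Of the other clusters, Hist1 (-0.06), Hist2 (0.03) and Hist4 (-0.68, a single gene) overlapped.

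*Hist1h2bc* was the abundant histone gene with the clearest shift, and the shift was small. It had 18.2, 20.7 and 21.4 CPM in Atrx-cKO and 26.3, 21.8 and 23.9 CPM in control, with every Atrx-cKO library below every control. The log2 fold change was -0.26 (standard error 0.11, 95% interval -0.51 to -0.004, adjusted p = 0.992 in edgeR). *Hist2h2be*, in contrast, had 8.72, 8.72 and 9.89 CPM in Atrx-cKO and 10.4, 6.59 and 5.42 CPM in control, so that the Atrx-cKO libraries fell inside a wide control range (log2 fold change 0.29, standard error 0.24). It was 0.60 without control replicate 1 and 0.091 without control replicate 3. *Hist1h2be* had 1.03, 1.77 and 1.66 CPM in Atrx-cKO and 1.94, 2.15 and 2.08 CPM in control, all 3 below the controls (log2 fold change -0.47, standard error 0.26). Part of its exons is also annotated to *Hist1h1e* on the same strand. *Hist1h2bk*, named here after its values were seen as the other tested gene with all Atrx-cKO libraries above the controls, had 0.256, 0.263 and 0.492 CPM against 0.193, 0.210 and 0.0630 CPM (log2 fold change 1.08, standard error 0.56). The lowest fold change of the class was that of *Hist2h2bb*, -0.74 (standard error 0.67), which ran from -1.55 without Atrx-cKO replicate 2 to -0.091 without control replicate 1. Of the exonic bases of *Hist2h2bb*, 59.3% also belong to the noncoding gene *Gm42743* on the same strand. *Gm42743*, looked at after its values were seen, was at -0.78 (standard error 0.31).

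**Figure D4:**
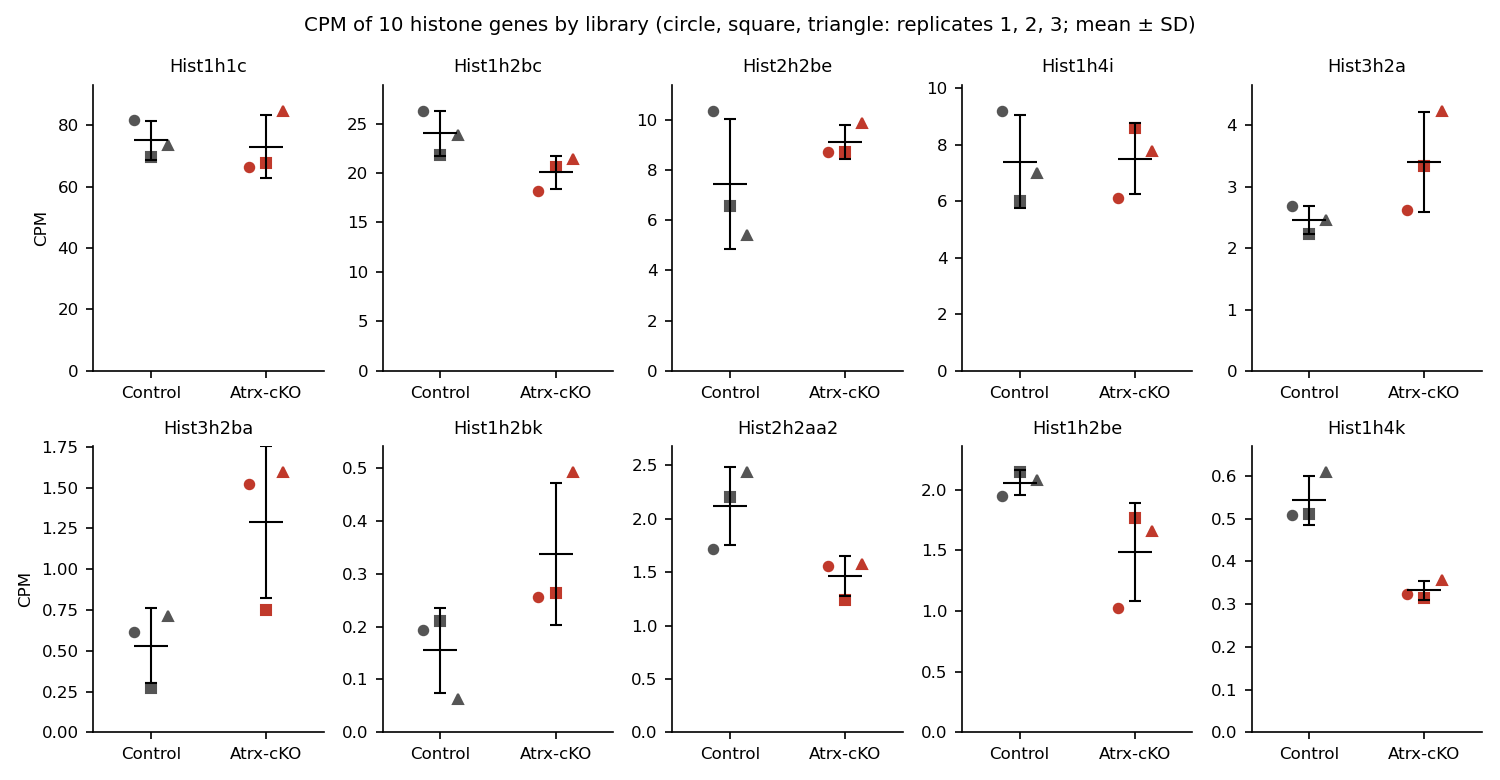
CPM of 10 histone genes in each library, with the mean and SD in black; each axis starts at 0. The upper row holds the 5 genes with the highest CPM, and the lower row *Hist3h2ba* and the other tested genes whose genotypes do not overlap; *Hist1h2bc* in the upper row does not overlap either.

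Among H2A genes, *Hist2h2aa2* had 1.56, 1.24 and 1.58 CPM in Atrx-cKO and 1.72, 2.21 and 2.44 CPM in control, with all Atrx-cKO libraries below the controls (log2 fold change -0.54, standard error 0.23, adjusted p = 0.992 in edgeR). All 150-base stretches of its transcript recur in other genes, among them its copy *Hist2h2aa1*, which had 0.0648 CPM on average and shares 90.3% of its exonic bases with *Gm20634* on the same strand. How reads were divided between the 2 copies is therefore uncertain. *Hist1h2ac* was at 0.23 (standard error 0.39) and *Hist1h2af* at -0.03 (standard error 0.47). The lowest fold change of the class was -0.70 (standard error 0.68) for *Hist1h2ag*, which was -0.25 without control replicate 1.

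All 18 H2A genes overlap another annotated gene, against 6 of the 49 genes of the other classes. For 17 of the H2A genes that partner is a short gene of 129 to 144 bases annotated as a miRNA on the opposite strand. In 14 of these pairs both genes had counts, and per kilobase the partner was higher than the histone gene in 10, with a median ratio of 1.49 and a range from 0.461 to 28.1. *Hist1h2af* had 266 counts over the 6 libraries and its partner *Gm44297* 183. The extreme was *Hist3h2a*, with 1013 counts, and *Gm44313*, with 1823 counts, or 38.3 CPM per kb against 1.36. *Gm44313* had 4.80, 6.13 and 5.94 CPM in Atrx-cKO and 5.57, 4.31 and 4.98 CPM in control, which overlap (log2 fold change 0.18, standard error 0.17). The libraries are labelled as strand specific, and the counting program and its strand setting are not given in the sources used here. Without strand, reads of an H2A gene and its partner cannot be told apart, and the H2A levels may leave out reads counted on the partner. Genes without an annotated partner do not show whether reads were left out in the same way. Reads on no feature were 51.6% to 52.4% of each library, and whether the strand setting added to them was not tested. These partners were looked at after the values of the histone genes were known.

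The H3 class was the lowest in level, and 7 of its 8 tested genes had a log2 fold change above 0, with a median of 0.36. None reached an unadjusted p under 0.05, and no H3 gene separated the genotypes. *Hist2h3c2*, the most abundant, had 1.49, 2.45 and 0.865 CPM in Atrx-cKO and 1.14, 1.65 and 1.70 CPM in control, so Atrx-cKO replicates 2 and 3 were the extremes of all 6 libraries (log2 fold change 0.10, standard error 0.39). *Hist1h3d* was at 0.15 (standard error 0.32), *Hist1h3c* at 0.53 (standard error 0.47) and *Hist1h3a* at 0.32 (standard error 0.90). *Hist1h3i*, with 0.154, 0.298 and 0.305 CPM in Atrx-cKO and 0.175, 0.0300 and 0.126 CPM in control, had the highest value of the class, 1.21 (standard error 0.67), which was 0.73 without control replicate 2, and *Hist1h3e* the lowest, -0.27 (standard error 0.70). The class median fell to 0.15 without the filter on low counts, which brings in 3 more genes, and to 0.03 without Atrx-cKO replicate 2.

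Among H4 genes, *Hist1h4i* had 6.14, 8.59 and 7.79 CPM in Atrx-cKO and 9.21, 6.002 and 6.99 CPM in control, an overlap over nearly the whole range (log2 fold change 0.02, standard error 0.20, 95% interval -0.45 to 0.49). *Hist2h4* had 1.98, 2.85 and 1.34 CPM against 2.08, 2.55 and 3.57 CPM (log2 fold change -0.41, standard error 0.33). *Hist1h4n* was at -0.18 (standard error 0.47) and *Hist1h4h* at -0.48 (standard error 0.38). *Hist1h4m* had the highest fold change of all tested histone genes, with 0.359, 1.16 and 1.37 CPM in Atrx-cKO and 0.193, 0.630 and 0.0840 CPM in control. The difference was 1.62 on the log2 scale, with a standard error of 0.74 and, in edgeR, an adjusted p = 0.992. It ran from 1.20 without control replicate 3 to 2.75 without control replicate 2. Atrx-cKO replicate 1 lay below the highest control, and 85.8% of its 150-base stretches recur in *Hist1h4n*. *Hist1h4k* had 0.325, 0.315 and 0.356 CPM in Atrx-cKO and 0.508, 0.510 and 0.609 CPM in control, with every Atrx-cKO library lower (log2 fold change -0.70, standard error 0.32), the lowest value of the class.

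Close sequence copies limit the attribution of reads in many members. In 20 of the 67 genes more than 50% of the 150-base stretches of the transcripts, the length of 1 read, also occur in transcripts of genes elsewhere. In 17 genes none does, *Hist1h1c*, *Hist2h2be*, *Hist3h2a* and *Hist3h2ba* among them. The 20 genes include *Hist1h2bk* (60.9%), *Hist2h3c2* (59.4%) and *Hist1h4k* (53.4%). The share was 17.4% in *Hist1h2bc* and 2.08% in *Hist1h4i*, so the leading genes rest mostly on sequence of their own. The genome itself was not searched.

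Histone mRNA normally follows S phase, so the libraries were also compared with 19 cell cycle and DNA replication genes. None of the 19 reached an unadjusted p under 0.05 between genotypes, and their median log2 fold change was 0.09. Their summed level was 2488, 1887 and 2015 CPM in Atrx-cKO replicates 1, 2 and 3 and 2512, 1739 and 1688 CPM in the controls, so that replicate 1 of each genotype was high. *Mki67*, a marker of proliferating cells, had 615, 465 and 532 CPM in Atrx-cKO and 630, 412 and 420 CPM in control. *Top2a*, which untangles replicated DNA, and *E2f2*, a regulator of S phase genes, also had their highest level in replicate 1 of each genotype (log2 fold changes 0.13 and 0.16, standard errors 0.17 and 0.21).

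The histone genes differed most from the cell cycle genes in 1 library, Atrx-cKO replicate 1. Atrx-cKO replicate 1, highest in 9 of the 19 cell cycle genes, was the lowest library in 17 of the 48 tested histone genes and the highest in 3. Its median log2 deviation from each gene's mean was -0.18 over the histone genes and 0.29 over the cell cycle genes. For these deviations 0.5 CPM was added before the log, which shrinks those of genes with few reads. The cell cycle genes had a median of 85.6 CPM and the 42 histone genes under 2 CPM one of 0.429. The sizes in the 2 sets are therefore not on 1 scale. Control replicate 1, highest in the other 10 cell cycle genes, was the lowest in 0 histone genes and the highest in 9, with median deviations of 0.07 and 0.30. Control replicate 3 was the lowest in 12 histone and 14 cell cycle genes, with medians of -0.11 and -0.26, and control replicate 2 lay between them in both sets, with medians of 0.00 and -0.19. Atrx-cKO replicate 3 was the highest library in 19 histone genes and in 0 cell cycle genes. The medians of Atrx-cKO replicates 2 and 3 were 0.14 and 0.08 over the histone genes and -0.09 and -0.08 over the cell cycle genes. This is a description of 6 libraries with no test. The part played by RNA quality, poly(A) selection and cell makeup was not tested.

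**Figure D5:**
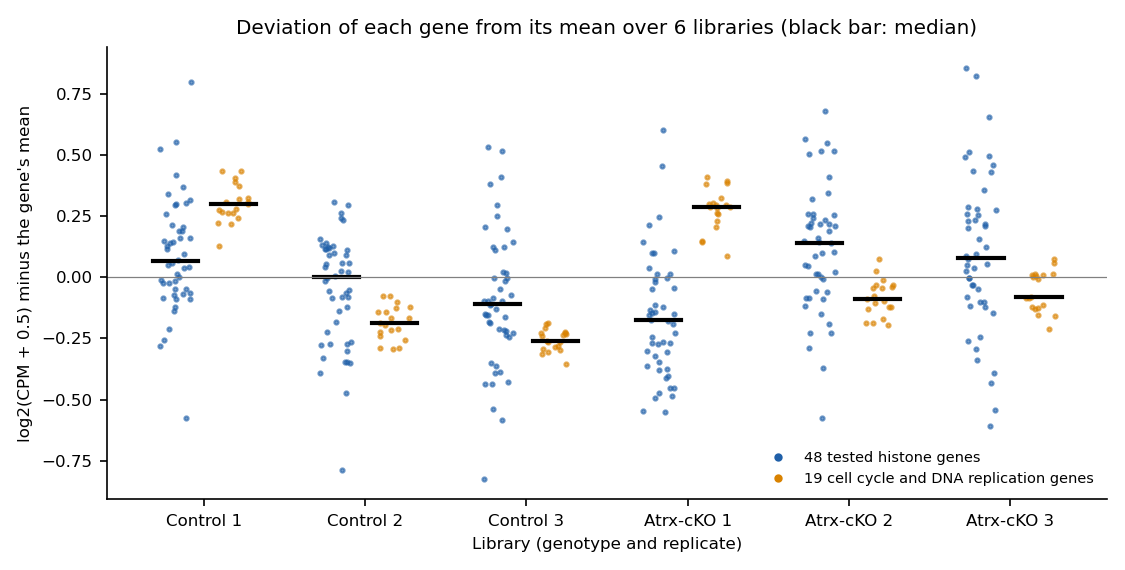
Deviation of log2(CPM + 0.5) from the gene's mean over the 6 libraries for 48 tested histone genes and 19 cell cycle and DNA replication genes; points are genes and black bars medians. In Atrx-cKO replicate 1 the histone median is -0.18 and the cell cycle median 0.29.

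Histone variant genes outside the Hist clusters, whose mRNAs are mostly polyadenylated, gave many more reads than the clustered genes. The 11 variant genes summed to 1523 to 1785 CPM per library. *H3f3b* and *H3f3a*, which encode the H3.3 that ATRX and DAXX deposit, were at log2 fold changes of 0.14 (standard error 0.10) and 0.02 (standard error 0.09), and *H2afz*, which encodes H2A.Z, at 0.12 (standard error 0.12). *H3f3a* had 408, 380 and 406 CPM in Atrx-cKO and 430, 378 and 374 CPM in control. None of the 11 variants reached an unadjusted p under 0.05, and their median was 0.02. Their median coefficient of variation within a genotype was 11.5%.

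Of the genes that make and cut histone mRNA, 18 of the 20 listed were matched, and 0 reached an unadjusted p under 0.05 (median log2 fold change 0.05). Those with the highest CPM were *Srrt*, *Upf1* (a helicase needed for histone mRNA decay) and *Sympk* (a scaffold of the cleavage complex), at 0.06, -0.04 and -0.04. *Slbp*, whose product binds the stem-loop, was singled out after its values were seen. It had 75.7, 67.6 and 69.4 CPM in Atrx-cKO and 90.7, 60.9 and 58.4 CPM in control, all Atrx-cKO libraries inside the control range (log2 fold change 0.02, standard error 0.17). Of the 10 histone chaperone genes, ATRX included, 1 was higher at an unadjusted p under 0.05, where 1.59% of all genes tested were, and 0 were lower. The higher gene was *Asf1a*, a carrier of H3 and H4, with 24.6, 22.2 and 22.9 CPM in Atrx-cKO and 19.6, 19.4 and 21.1 CPM in control (log2 fold change 0.21, standard error 0.09, adjusted p = 0.992 in edgeR). Its unadjusted p in DESeq2's Wald test was 0.069. *Npm1* and *Nap1l1* were at 0.33 (standard error 0.18) and 0.16 (standard error 0.12). The *Npm1* value was 0.080 without Atrx-cKO replicate 1, which was at 349 CPM against 218 and 226 CPM in the other Atrx-cKO libraries and 201 to 218 CPM in the controls.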

How the data were processed

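RNA of 3 Atrx-cKO and 3 control tibias was sequenced by GENEWIZ after poly(A) selection. The authors deposited raw counts per Ensembl gene for each library; the submitters' processing notes name GRCm38 and DESeq2, and the aligner and counter are not given in the sources used here. The 5 summary entries (reads on no feature were 51.6% to 52.4%) were kept out. GENCODE M21 named 55141 of 55401 identifiers. The histone genes and all lists were chosen with earlier results of these data known.

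Counts were fitted with edgeR 4.0.16 in R 4.3.3 (TMM, filterByExpr, quasi-likelihood test, genotype alone, Benjamini-Hochberg adjustment over 20636 genes). Standard errors are the log2 fold change over the root of F, and 95% intervals use the moderated degrees of freedom. DESeq2 1.42.0, other scalings, filters, a replicate block and fits without 1 library were alternatives. The fits were also run on simulated data with the same dispersion for every gene, which does not check genes whose spread differs. An exact permutation test of 3 against 3 cannot go below p = 0.1. Genes named were, in each class, the 4 tested genes with the highest CPM, those with the highest and lowest fold change and any with an unadjusted p under 0.05, *Atrx*, and in each pathway list the 3 with the highest CPM and any with such a p; others are said to be chosen after their values were seen. CPM were summed over all members of a class, tested or not. Transcript ends were read from GENCODE M21 transcripts and promoters from RefSeq.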

Additional observations from a re-analysis of the deposited data

How the results depend on the processing

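The number of histone genes called was 0 in every fit, including each fit without 1 library, and the adjusted p of each of the 39 genes named by the rule was at least 0.303 over the alternatives. Of the 48 tested histone genes 42 were under 2 CPM, and what depth, 3 libraries a group and the spread between mice each contribute was not separated. The causes of the differences below were not tested.

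Histone genes at an unadjusted p under 0.05, 1 higher and 2 lower, became 2 and 0 with library size alone, 3 and 0 without a filter, 2 and 0 among the 59 genes to which DESeq2 gave an adjusted p, and 0 to 4 and 0 to 1 in fits without 1 library. With at least 10 counts in every library 3 were lower. Replicate numbers did not mark pairs (correlations of same-numbered libraries -0.0277, 0.0575 and -0.0681), and with the replicate block 2 were higher and 0 lower.

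The median log2 fold change over tested histone genes ran from -0.08 to 0.16 without 1 library. By class it ran from -0.18 to 0.29 (H1), -0.27 to 0.023 (H2A), -0.19 to 0.26 (H2B), 0.033 to 0.76 (H3) and -0.28 to -0.060 (H4). The H2A median was 0.22 with at least 10 counts in every library, and the H3 median 0.15 without a filter, with at least 10 counts in every library, and with DESeq2. Log2 ratios of summed CPM without 1 library ran from -0.16 to 0.040 (H1), -0.11 to 0.20 (H2A), -0.14 to 0.057 (H2B), -0.15 to 0.38 (H3), -0.17 to 0.075 (H4) and -0.12 to 0.055 (all). That of H2B turned from -0.07 to 0.20 without *Hist1h2bc*. For H2A no sum without overlapping members exists, since all overlap another gene.

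Of the refitted fold changes of the genes named, 427 kept their direction and 34 reversed, and 34 of the 39 genes moved by over 1.5 times without at least 1 of the libraries. With library size alone *Hist1h1c* was at 0.030, *Hist1h2af* at 0.041, *Atrx* at 0.024, *Upf1* at 0.032 and *Sympk* at 0.024.
Without 1 library the genes that reversed ran from -0.16 to 0.029 (*Hist1h1c*), -0.18 to 0.29 (*Hist1h1d*), -0.057 to 0.49 (*Hist1h2ac*), -0.60 to 0.32 (*Hist1h2af*), -0.35 to 0.40 (*Hist2h3c2*), -0.024 to 0.40 (*Hist1h3d*), -0.52 to 1.06 (*Hist1h3a*), -0.72 to 0.19 (*Hist1h3e*), -0.11 to 0.21 (*Hist1h4i*), -0.71 to 0.081 (*Hist1h4n*), -0.033 to 0.083 (*H3f3a*), -0.0988 to 0.00336 (*Upf1*), -0.0793 to 0.00254 (*Sympk*) and -0.010 to 0.39 (*E2f2*).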
